A study of Homo sapiens with 11 samples.

Results

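The 34 genes described here act in the G2 phase of the cell cycle and in mitosis. They were taken as a fixed list of symbols and found on an exon array by every probe set that carried exactly 1 gene symbol from that list, older symbols counted. The rule that finds them uses no measured value, but the list was drawn up with earlier results of these data known. All 34 were measured, with 733 probe sets among the 220978 tested, and they make up 34 of the 14496 genes with a gene value. CDK1 stood in the array's table under its older symbol CDC2.

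The arrays were hybridised with RNA of T-REx-293 cells, human embryonic kidney cells of the HEK293 family in which tetracycline switches on a gene held on a plasmid. The cells of every group carried a GFP plasmid and received 2.5 µg/mL tetracycline for 72 h. The groups were 3 arrays of Tat-SF1 shRNA B, 3 arrays of Tat-SF1 shRNA A, 3 arrays of an shRNA against GFP and 2 arrays of the empty vector. Both Tat-SF1 shRNAs together are called knockdown here (6 arrays), and the GFP shRNA and the empty vector are called control (5 arrays). The design lists 12 samples in biological triplicate, of which the empty vector's replicate 3 failed quality control. HEK293 cells were transformed with adenovirus DNA and divide continuously in culture, and the labels name no step that arrests or synchronises the cycle. In such bulk RNA, fewer cells in G2 and mitosis and less RNA of these genes per cell cannot be told apart.

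Entry into mitosis is driven by CDK1 bound to cyclin B, which CDC25 phosphatases activate. The kinases PLK1, AURKA and AURKB then build the spindle and correct its attachments, the spindle checkpoint holds CDC20 and the anaphase-promoting complex until every chromosome is attached, and cytokinesis divides the cell. The transcripts of these proteins peak together in G2 and mitosis, under the factors FOXM1 and B-MYB, which act with the MuvB core complex at cell cycle genes homology regions (CHR) and with NF-Y at CCAAT boxes of the promoters. Tat-SF1, encoded by HTATSF1, is a factor of transcription elongation and of splicing that binds the U2 snRNP.

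The promoters show what the members share in sequence. RefSeq's table of promoters (GRCh38.p14, 250 bases before to 50 after each start) held 27 of the 34 members, with 33 promoters. AURKA, BIRC5, BUB3, FOXM1, TPX2, TTK and UBE2C are named only. A CHR, searched on both strands as TTTGAA or TTCGAA, stood in 23 of these 33 promoters (69.7%), against 16.4% of all 35116 promoters in the table. CCAAT, searched on both strands, stood in 26 of them (78.8%), against 34.6% of all. Both stood in 20 of them (60.6%), against 6.38% of all, and no match of one overlapped a match of the other in the sequences printed here. The promoters of 3 members are printed as examples, and all 3 genes had lower means in the knockdown arrays. AURKB had the largest difference between knockdown and control among the members, and CDC20 is described below by gene and by probe set. CCNB2 had a difference of -0.050, near the median size of the members' differences, 0.049. The sequences run 5′ to 3′ on the gene's strand, and capitals mark the letters of CHR and CCAAT matches on either strand.
AURKB, chr17:8210176-8210475 (- strand): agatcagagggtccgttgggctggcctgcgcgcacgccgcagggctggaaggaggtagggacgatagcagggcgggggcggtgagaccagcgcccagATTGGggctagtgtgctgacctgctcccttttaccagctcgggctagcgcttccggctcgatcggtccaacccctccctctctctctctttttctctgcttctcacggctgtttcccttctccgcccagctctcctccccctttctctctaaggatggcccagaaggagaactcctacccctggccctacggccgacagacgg
CDC20, chr1:43358731-43359030 (+ strand): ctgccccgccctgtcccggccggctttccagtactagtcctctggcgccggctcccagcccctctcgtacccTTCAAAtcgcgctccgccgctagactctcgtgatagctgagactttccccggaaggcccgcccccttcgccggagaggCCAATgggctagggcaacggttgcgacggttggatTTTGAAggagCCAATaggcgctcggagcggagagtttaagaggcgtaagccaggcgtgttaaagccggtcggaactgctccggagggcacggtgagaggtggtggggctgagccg
CCNB2, chr15:59104896-59105195 (+ strand): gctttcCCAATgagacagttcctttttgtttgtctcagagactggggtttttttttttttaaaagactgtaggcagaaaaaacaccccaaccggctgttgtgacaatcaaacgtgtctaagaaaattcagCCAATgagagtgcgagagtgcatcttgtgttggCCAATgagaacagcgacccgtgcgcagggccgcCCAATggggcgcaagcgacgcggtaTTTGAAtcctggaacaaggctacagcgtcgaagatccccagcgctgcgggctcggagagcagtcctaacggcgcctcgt

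In the printed AURKB promoter, 1 of 2 in the table, CCAAT was read on the other strand (ATTGG) 153 bases before the start, and neither CHR word was found. That of CDC20 held a CHR 65 bases before the start and another on the other strand at 178, with CCAAT at 100 and 55. That of CCNB2 held a CHR at 29 and CCAAT at 244, 120, 87 and 54. Of the matched members, CENPE and KIF2C had neither motif in their window. A match is a description of letters and not of a bound site.

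A gene value here is the median log2 value of a gene's probe sets on an array, and a difference is knockdown minus control on that scale. Dim probe sets crowd around the median of the table, 7.91, so that differences of genes near this level can be compressed. Levels of different genes are not compared, other than the rough levels of cell type markers given at the end of this paragraph. HTATSF1, the target of both Tat-SF1 shRNAs, averaged 8.206 ± 0.0567 in the knockdown arrays (SD, n = 6) and 8.503 ± 0.115 in the controls (SD, n = 5), with no overlap between the 2 groups (p = 0.00217 in an exact permutation test, the smallest the design allows). By limma its difference of -0.30 had an adjusted p of 0.0483, which lay between 0.0164 and 0.103 when single arrays were left out and between 0.00591 and 0.353 over all alternatives. The lowest control, empty vector replicate 2 at 8.317, was near the highest knockdown array, shRNA A replicate 1 at 8.286. Brightness differed between the groups: the 3000 brightest genes of the knockdown arrays averaged 9.26 ± 0.0447 (SD, n = 6), against 9.32 ± 0.0412 (SD, n = 5) in the controls (exact permutation p = 0.0303). The dimmest array was shRNA B replicate 1, at 9.182, and the brightest was GFP shRNA replicate 1, at 9.382. A suffix in the array names was carried by shRNA A replicate 3 and all 3 arrays of shRNA B and by no control. Its meaning is not stated, and shRNA A replicate 3 is the single array through which a fit can separate it from shRNA B. In the comparison of knockdown and control, the suffix as a block leaves shRNA A replicates 1 and 2 against the controls. With that block, the adjusted p of HTATSF1 by limma was 0.353. Of the HEK293 markers examined, VIM, INA, KRT18 and NEFL lay between 9.16 and 10.14 on average, PAX2 at 8.13 and NEFM at 7.98, near the dim level. Measured markers of fibroblasts (5 of 5), endothelium (2 of 3), blood (1 of 4) and hepatocytes (2 of 3) lay between 7.92 and 8.13. Of the 2 measured carcinoma markers ESR1 lay at 7.93 and EPCAM at 8.72. Probe sets averaging under 7.91 were not used, which limits how low a marker can lie.

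None of the 34 mitosis and G2/M genes passed the test between knockdown and control, by limma with Benjamini-Hochberg adjustment over all genes at 0.05, where 33 of 14496 genes (0.228%) passed. The differences ran from -0.35 for AURKB to 0.11 for UBE2C. Unadjusted p was under 0.05 for 5 members, AURKB, KIF2C, CDC20, CDKN3 and CDC25C, all lower in the knockdown arrays, which is 14.7% of the members beside 15.2% of all genes. A lower mean in the knockdown arrays was found for 26 of 34 members (76.5%), beside 67.3% of all genes, and the median difference was -0.039 for the members and -0.017 for all genes. Counted by probe set the members did not stand apart: 446 of their 733 probe sets (60.85%) had lower means, beside 61.58% of all probe sets. AURKB was the member whose groups did not overlap, while knockdown lay wholly below control in 2.02% of all genes and wholly above in 0.214%.

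**Figure D1:**
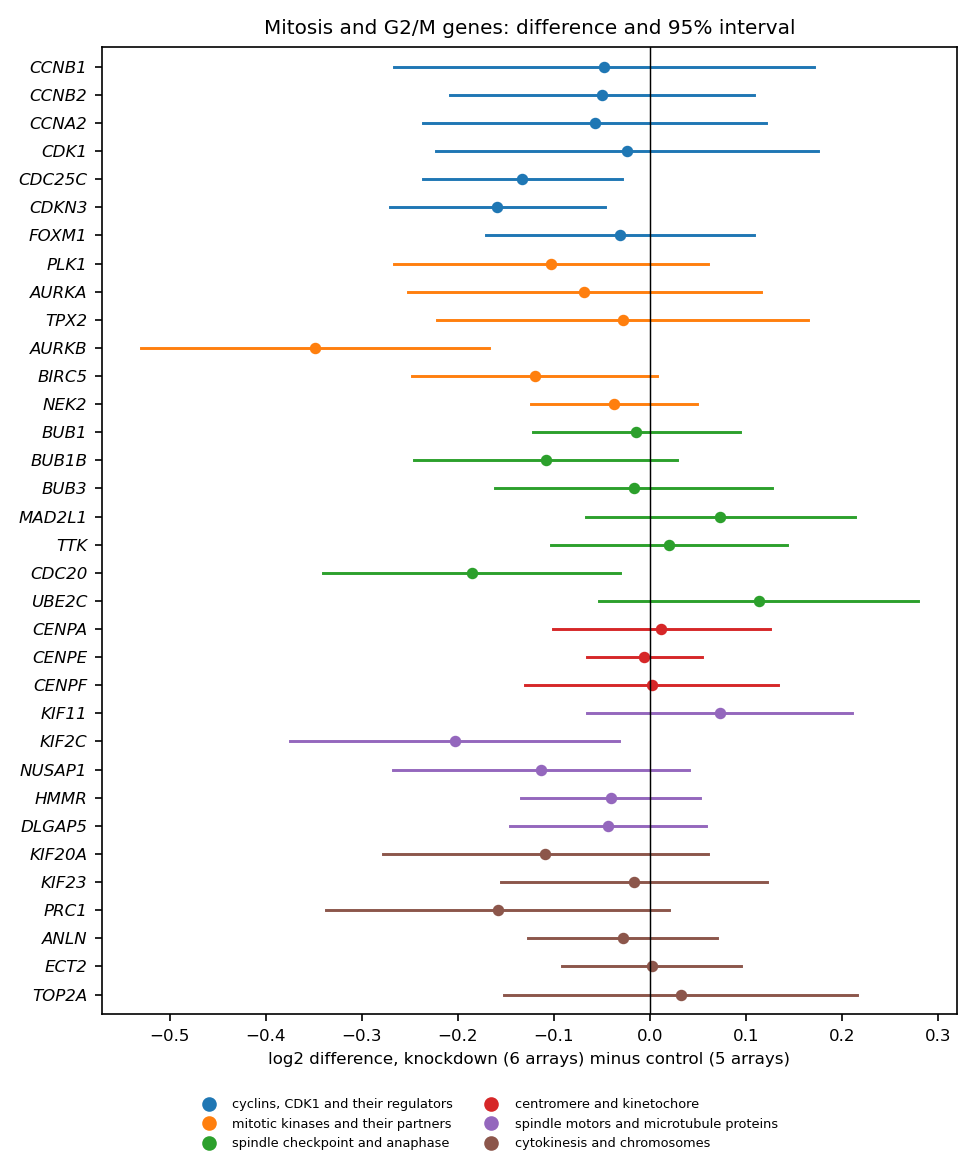
Difference in gene value (log2), knockdown (6 arrays) minus control (5 arrays), for each of the 34 genes in 6 roles, with limma's 95% interval. AURKB stands at -0.35, its interval ends at -0.17, and most other intervals include 0.

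Among the mitotic kinases and their partners, all 6 members were lower on average with knockdown than in the pooled controls (median -0.086), and none passed the test. The knockdown means of AURKA and TPX2 lay above their empty vector means, and those of the other members below. AURKB encodes the catalytic subunit of the chromosomal passenger complex, which corrects wrong attachments of chromosomes and starts cytokinesis. Its gene values were 10.21, 10.04 and 10.39 on the shRNA B arrays and 10.30, 10.43 and 10.15 on the shRNA A arrays, against 10.82, 10.54 and 10.54 on the GFP shRNA arrays and 10.45 and 10.66 on the empty vector arrays. All 6 knockdown arrays lay below all 5 controls, and the highest knockdown array was within 0.02 of the lowest control. The difference was -0.35 (SE 0.086, 95% interval -0.53 to -0.17), with an adjusted p of 0.0818, and AURKB ranked 153rd of 14496 genes by p. All 10 of its probe sets were lower on average with knockdown, with differences of -0.44 to -0.0048. On a linear scale above each array's median level, AURKB had 988 ± 125 units in the knockdown arrays (SD, n = 6) and 1323 ± 160 units in the controls (SD, n = 5), which is 74.7% of the control signal. With the suffix as a block the difference was -0.24 (adjusted p = 0.573), and without the brightest and the dimmest array it was -0.29 (adjusted p = 0.221), an alternative chosen after seeing the data.

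The other subunits of the chromosomal passenger complex had smaller differences. BIRC5, survivin, which places the complex on chromosomes, had gene values of 9.08, 9.17 and 9.19 with shRNA B and 9.01, 9.25 and 8.97 with shRNA A, against 9.27, 9.25 and 9.21 with the GFP shRNA and 9.14 and 9.28 with the empty vector. Its groups overlapped, with a difference of -0.12 (SE 0.060, adjusted p = 0.364). Of its 16 probe sets 8 had lower means in the knockdown arrays, and the mean of the probe sets gave -0.036. INCENP, the scaffold of the complex, and CDCA8, borealin, are no members and were named after their values were seen. INCENP averaged 8.73 ± 0.0702 in the knockdown arrays (SD, n = 6) and 8.90 ± 0.140 in the controls (SD, n = 5), a difference of -0.17 (adjusted p = 0.215). CDCA8 averaged 8.48 ± 0.0880 in the knockdown arrays (SD, n = 6) and 8.64 ± 0.101 in the controls (SD, n = 5), a difference of -0.16 (adjusted p = 0.196).

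PLK1, the kinase of centrosome maturation and mitotic entry, had gene values of 10.66, 10.66 and 10.68 with shRNA B and 10.42, 10.71 and 10.35 with shRNA A, against 10.72, 10.60 and 10.71 with the GFP shRNA and 10.65 and 10.73 with the empty vector. Only shRNA A replicates 1 and 3 lay below every control, and the pooled difference was -0.10 (SE 0.077, adjusted p = 0.565), or -0.057 without shRNA A replicate 3. TPX2, which activates AURKA on the spindle, had 9.69, 10.06 and 9.84 with shRNA B and 9.67, 9.55 and 9.81 with shRNA A, against 10.00, 9.82 and 9.87 with the GFP shRNA and 9.60 and 9.71 with the empty vector. The knockdown range held the whole control range, while the GFP shRNA arrays lay above the empty vector arrays, by 0.24 on average, and above the shRNA A arrays. The pooled difference was -0.029 (SE 0.091, adjusted p = 0.912), with values between -0.087 and 0.023 when single arrays were left out. AURKA itself ranged from 9.08 to 9.40 in the knockdown arrays and from 9.11 to 9.63 in the controls, with a difference of -0.068. NEK2, a kinase of centrosome separation, ranged from 8.16 to 8.27 in the knockdown arrays and from 8.20 to 8.40 in the controls, with a difference of -0.037.

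**Figure D2:**
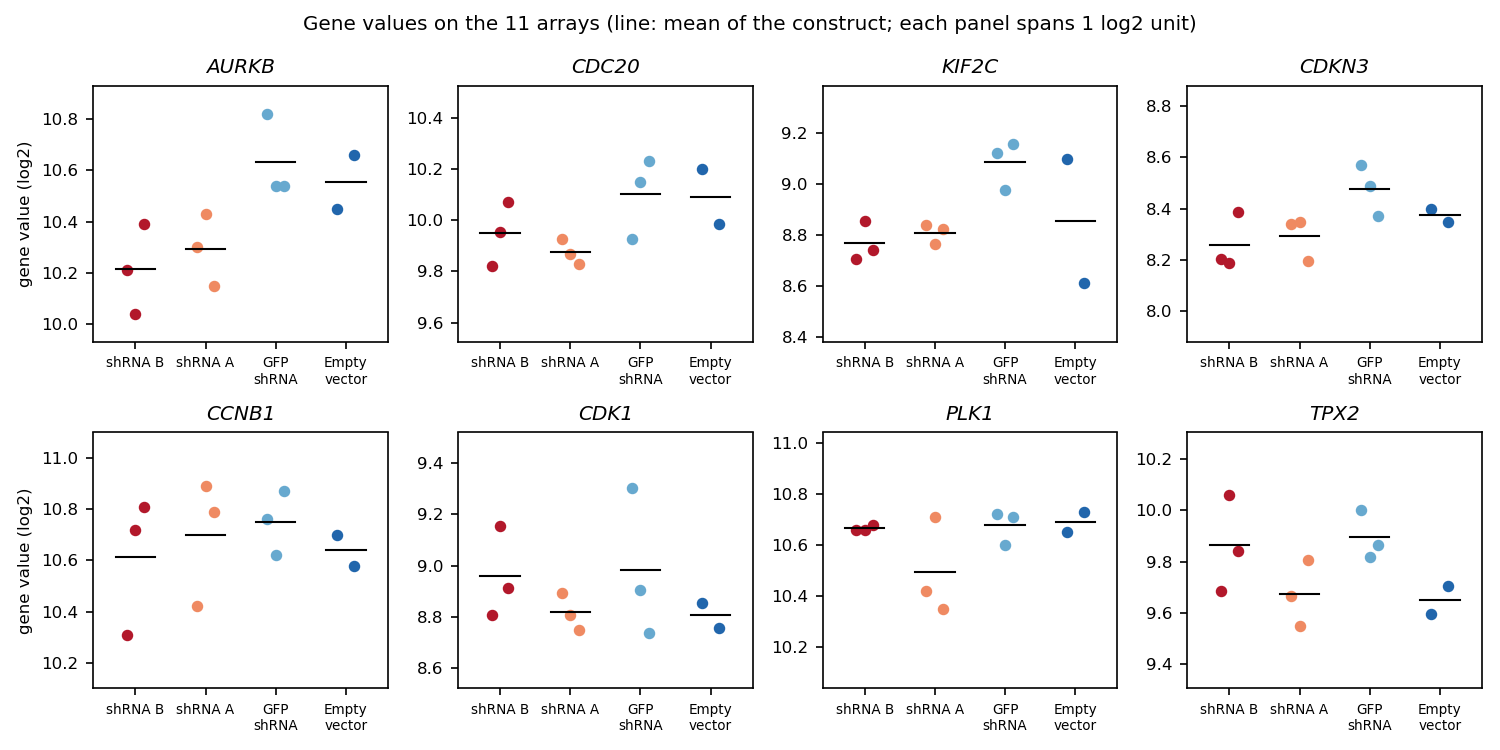
Gene values (log2) of 8 members on each of the 11 arrays by construct, with a line at each construct's mean; every panel spans 1 log2 unit. AURKB is the gene whose shRNA B and shRNA A arrays all lie below the GFP shRNA and empty vector arrays, and KIF2C has 1 empty vector array, replicate 2, at 8.61, below every other array.

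All 7 cyclins, CDK1 and their regulators were lower on average with knockdown than in the pooled controls (median -0.050), and none passed the test. The knockdown means of CCNB1, CCNB2, CCNA2, CDK1 and FOXM1 lay below their GFP shRNA means but above their empty vector means. CDC25C and CDKN3 had knockdown means below both. CCNB1, cyclin B1, had gene values of 10.31, 10.72 and 10.81 with shRNA B and 10.42, 10.89 and 10.79 with shRNA A, against 10.76, 10.62 and 10.87 with the GFP shRNA and 10.70 and 10.58 with the empty vector. Replicate 1 of each Tat-SF1 shRNA was low and the other arrays were mixed, so that the difference of -0.048 (SE 0.10, adjusted p = 0.866) was smaller than the spread within constructs, 0.21. CDK1, the kinase that cyclin B activates, had 8.81, 9.15 and 8.91 with shRNA B and 8.90, 8.81 and 8.75 with shRNA A, against 9.30, 8.90 and 8.74 with the GFP shRNA and 8.86 and 8.76 with the empty vector. The control range held the whole knockdown range, with a difference of -0.024 (SE 0.094, adjusted p = 0.935). FOXM1, the transcription factor of this gene programme, had 9.37, 9.50 and 9.34 with shRNA B and 9.24, 9.49 and 9.34 with shRNA A, against 9.53, 9.50 and 9.43 with the GFP shRNA and 9.30 and 9.30 with the empty vector. Its empty vector arrays lay below its GFP shRNA arrays, and the pooled difference was -0.031 (SE 0.066, adjusted p = 0.864).

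CDKN3, a phosphatase that acts on CDK1 and CDK2, had gene values of 8.20, 8.19 and 8.39 with shRNA B and 8.34, 8.35 and 8.20 with shRNA A, against 8.57, 8.49 and 8.37 with the GFP shRNA and 8.40 and 8.35 with the empty vector. Of the 6 knockdown arrays, 5 lay below the lowest control, and the difference was -0.16 (SE 0.053, adjusted p = 0.173). Its 13 probe sets did not move as one: 7 had lower means in the knockdown arrays, and the mean of the probe sets gave -0.034. CDC25C, a phosphatase that activates CDK1, had 8.21, 8.35 and 8.33 with shRNA B and 8.43, 8.30 and 8.30 with shRNA A, against 8.39, 8.46 and 8.52 with the GFP shRNA and 8.55 and 8.35 with the empty vector. Its groups overlapped, with shRNA B replicate 2 and shRNA A replicate 1 above the lowest control, empty vector replicate 2, and with a difference of -0.13 (SE 0.049, adjusted p = 0.210) that was -0.065 with the mean of the probe sets. CCNB2, cyclin B2, ranged from 8.90 to 9.21 in the knockdown arrays and from 8.95 to 9.35 in the controls, with a difference of -0.050. CCNA2, cyclin A2, ranged from 9.06 to 9.52 in the knockdown arrays and from 9.18 to 9.49 in the controls, with a difference of -0.057.

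The 7 genes of the spindle checkpoint and of anaphase were mixed, with 4 lower and 3 higher means in the knockdown arrays, a median of -0.014 and no member past the test. CDC20, the activator of the anaphase-promoting complex that the checkpoint holds back, had gene values of 9.82, 9.96 and 10.07 with shRNA B and 9.93, 9.87 and 9.83 with shRNA A, against 9.93, 10.15 and 10.23 with the GFP shRNA and 10.20 and 9.98 with the empty vector. GFP shRNA replicate 1 and empty vector replicate 2 lay within the range of the knockdown arrays, and the difference was -0.19 (SE 0.073, adjusted p = 0.236). It was -0.056 with no filter on dim probe sets, and averaging the probe sets gave -0.068. BUB1B, the checkpoint protein BUBR1, had 8.67, 8.90 and 8.87 with shRNA B and 8.65, 8.68 and 8.63 with shRNA A, against 9.01, 8.78 and 8.89 with the GFP shRNA and 8.78 and 8.75 with the empty vector. The shRNA A arrays and shRNA B replicate 1 lay below every control, and the pooled difference was -0.11 (SE 0.065, adjusted p = 0.447), with 26 of 29 probe sets lower. Without GFP shRNA replicate 1 it was -0.067.

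MAD2L1, the checkpoint protein MAD2, had gene values of 8.61, 8.73 and 8.66 with shRNA B and 8.49, 8.45 and 8.84 with shRNA A, against 8.65, 8.57 and 8.53 with the GFP shRNA and 8.59 and 8.43 with the empty vector. Its difference of 0.073 (SE 0.066, adjusted p = 0.642) was positive, with shRNA A replicate 3 highest. UBE2C, the ubiquitin-conjugating enzyme that works with the anaphase-promoting complex, ranged from 8.90 to 9.32 in the knockdown arrays and from 8.88 to 9.25 in the controls, with a difference of 0.11 (SE 0.078, adjusted p = 0.526). That sign depended on the summary, since 9 of its 12 probe sets had lower means in the knockdown arrays, and the difference was -0.017 with no filter on dim probe sets and -0.035 with a higher floor. The checkpoint kinase TTK ranged from 8.41 to 8.69 in the knockdown arrays and from 8.42 to 8.65 in the controls, with a difference of 0.020. The checkpoint kinase BUB1 differed by -0.014 and its partner BUB3 by -0.017.

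The 3 centromere and kinetochore genes had the smallest differences of the 6 roles, and none passed. CENPA, the centromeric histone H3 variant, ranged from 8.15 to 8.46 in the knockdown arrays and from 8.21 to 8.35 in the controls, with a difference of 0.012. CENPE, a kinetochore motor measured by 61 probe sets, ranged from 8.06 to 8.17 in the knockdown arrays and from 8.06 to 8.18 in the controls, with a difference of -0.0061 and a 95% interval of -0.066 to 0.054. CENPF, a large kinetochore protein, differed by 0.0017. CENPE had the smallest spread within constructs of the 34 members, 0.037, and CCNB1 the largest.

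Of the 5 spindle motors and microtubule proteins, 4 had lower means in the knockdown arrays and none passed. KIF2C, the depolymerising kinesin MCAK, had gene values of 8.71, 8.86 and 8.74 with shRNA B and 8.84, 8.77 and 8.82 with shRNA A, against 9.12, 8.98 and 9.15 with the GFP shRNA and 9.10 and 8.61 with the empty vector. The 6 knockdown arrays lay within 0.15 of each other and below all controls other than empty vector replicate 2, which was the lowest of the 11 arrays. The difference was -0.20 (SE 0.081, adjusted p = 0.242), with 22 of 23 probe sets lower, and it was -0.30 with an adjusted p of 0.0336, past the threshold, when empty vector replicate 2 was left out. It was -0.081 with no filter on dim probe sets. NUSAP1, which bundles spindle microtubules, had 8.61, 8.80 and 8.84 with shRNA B and 8.71, 8.90 and 8.73 with shRNA A, against 9.15, 8.69 and 8.90 with the GFP shRNA and 8.81 and 8.84 with the empty vector. Its groups overlapped, with GFP shRNA replicate 1 highest and a difference of -0.11 (SE 0.073, adjusted p = 0.488), which was -0.047 without that array. HMMR, a microtubule-associated protein of the spindle poles, differed by -0.041, and DLGAP5, which stabilises kinetochore fibres, by -0.044. KIF11, the motor Eg5 that separates the spindle poles, ranged from 8.63 to 8.94 in the knockdown arrays and from 8.54 to 8.84 in the controls, with a difference of 0.073 (SE 0.065, adjusted p = 0.639).

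Among the 6 genes of cytokinesis and chromosome structure, 4 were lower on average with knockdown (median -0.022), and none passed. PRC1, which bundles the microtubules of the central spindle, had gene values of 9.50, 9.64 and 9.68 with shRNA B and 9.70, 9.58 and 9.62 with shRNA A, against 10.15, 9.69 and 9.61 with the GFP shRNA and 9.75 and 9.70 with the empty vector. The value of GFP shRNA replicate 1 stood far above the other 10 arrays. The difference was -0.16 (SE 0.084, adjusted p = 0.393), and without that array it was -0.066. KIF20A, the motor MKLP2 that carries the passenger complex to the central spindle, had 8.71, 9.15 and 9.03 with shRNA B and 9.15, 9.00 and 9.20 with shRNA A, against 8.99, 9.14 and 9.23 with the GFP shRNA and 9.23 and 9.17 with the empty vector. Apart from shRNA B replicate 1, which was lowest, the arrays were mixed, with a difference of -0.11 (SE 0.080, adjusted p = 0.552) that was -0.043 without shRNA B replicate 1. KIF23, the motor MKLP1 of the central spindle, differed by -0.016, ANLN, anillin of the contractile ring, by -0.028, and ECT2, which activates RhoA at the division plane, by 0.0018. TOP2A, the topoisomerase that untangles chromosomes, ranged from 9.33 to 9.80 in the knockdown arrays and from 9.41 to 9.85 in the controls, with a difference of 0.032.

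The members' values shifted together between single arrays. Relative to each gene's mean over the 11 arrays, the median member was at -0.12, 0.049 and 0.014 on the shRNA B arrays and at -0.023, -0.050 and 0.0083 on the shRNA A arrays, against 0.10, -0.00031 and 0.050 on the GFP shRNA arrays and -0.0029 and -0.063 on the empty vector arrays. On shRNA B replicate 1, the dimmest array, 2 of 34 members lay above their own mean, and on GFP shRNA replicate 1, the brightest, 31 did. The median of all genes was at -0.036 and 0.035 on these 2 arrays and between -0.019 and 0.015 on the other 9, and that of the other mitotic genes was at -0.092 and 0.089 on them. The other knockdown arrays had between 10 and 25 members above their mean, and the other controls between 10 and 26. The brightness of the arrays moved with these values, and its part in them was not tested. Without those 2 arrays the members' median difference was 0.0089, against -0.0054 for all genes, an alternative chosen after seeing the data. After quantile normalization it was -0.0016, against -0.00012 for all genes, and 8 members changed sign.

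**Figure D3:**
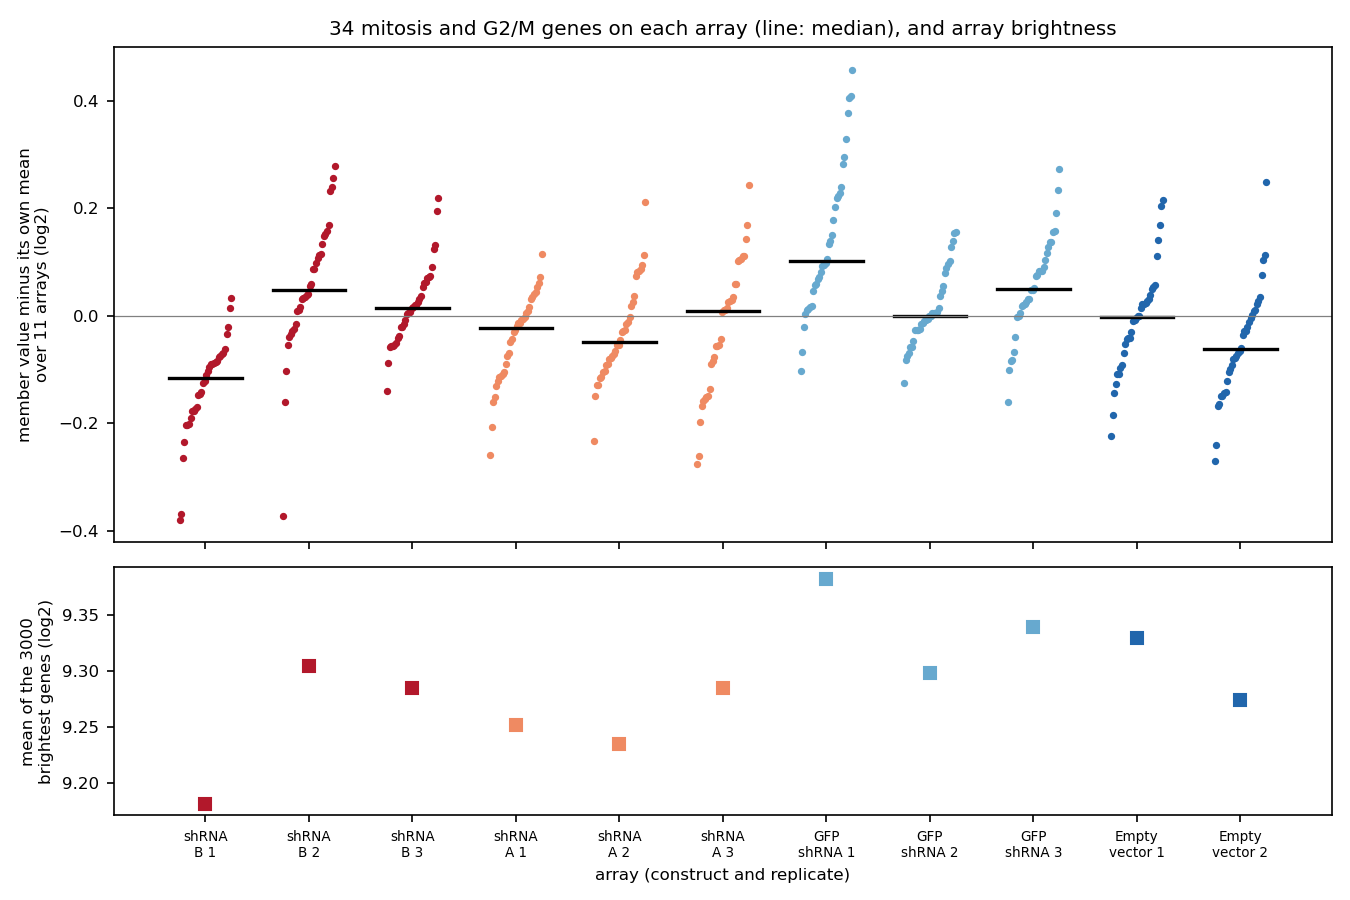
Top: gene value of each of the 34 members minus its own mean over the 11 arrays (log2), by array, with a line at the median. Bottom: mean log2 value of the 3000 brightest genes of the array. shRNA B replicate 1 has the lowest median (-0.12) and brightness (9.182), and GFP shRNA replicate 1 has the highest of both (0.10 and 9.382).

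Each Tat-SF1 shRNA was also set against the same 5 controls, which the 2 comparisons share. With shRNA B 0 of 34 members passed by limma, beside 0.0621% of all genes. Unadjusted p was under 0.05 for 4 members, AURKB (-0.39), KIF2C (-0.22), CDKN3 (-0.18) and CDC25C (-0.16), beside 13.3% of all genes. With shRNA B 26 of 34 members had lower means, beside 66.1% of all genes, with a median of -0.027 for the members and -0.017 for all genes. Without the brightest and the dimmest array, which is shRNA B replicate 1, that median of the members was 0.033. With the suffix as a block, the differences with shRNA B were -0.17 for AURKB (adjusted p = 0.935), -0.25 for KIF2C, -0.030 for CDKN3 and -0.086 for CDC25C. With shRNA A 0 of 34 members passed, beside 0.00690% of all genes. Unadjusted p was under 0.05 for 5 members, AURKB (-0.31), CDC20 (-0.22), BUB1B (-0.19), PLK1 (-0.19) and CDKN3 (-0.14), beside 10.8% of all genes. With shRNA A 25 of 34 members had lower means, beside 65.9% of all genes, with a median of -0.047 for the members and -0.015 for all genes. Among the arrays that lacked the suffix, shRNA A had replicates 1 and 2. Within these arrays AURKB differed from the controls by -0.24 (adjusted p = 0.619) and the members' median was -0.067, an alternative chosen after seeing the data. The pooled fit with the suffix as a block compares the same arrays, so the 2 results are not separate checks.

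**Figure D4:**
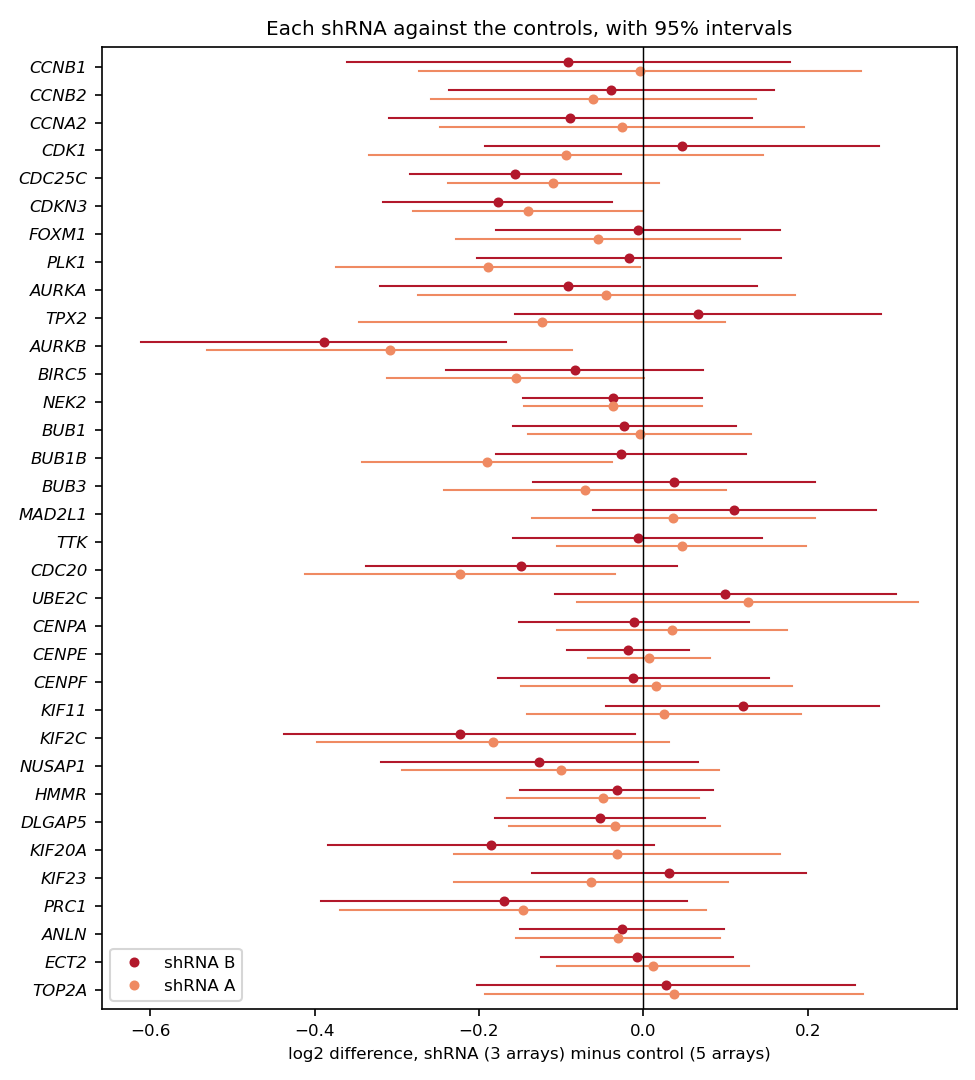
Difference in gene value (log2) from the 5 control arrays for shRNA B (3 arrays) and shRNA A (3 arrays), for each of the 34 members, with limma's 95% intervals. AURKB is at -0.39 with shRNA B and -0.31 with shRNA A, while the points of PLK1, BUB1B and TPX2 lie apart with overlapping intervals.

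Between the 2 shRNAs, shRNA B minus shRNA A, 0 of 34 members passed by limma, as did 0 of all genes (0%). No member had an unadjusted p under 0.05, beside 4.42% of all genes, and 0.999 was the lowest adjusted p of the members. The members with the largest differences were TPX2 at 0.19 (95% interval -0.060 to 0.44), PLK1 at 0.17 (-0.035 to 0.38), BUB1B at 0.16 (-0.0077 to 0.33) and KIF20A at -0.15 (-0.37 to 0.069). AURKB differed between them by -0.080, with an interval of -0.33 to 0.17. These intervals are wide beside the differences, so like responses to the 2 shRNAs are not shown.

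The GFP shRNA and the empty vector give the size of differences between constructs with no Tat-SF1 shRNA. None of the 34 members passed, beside 0.00690% of all genes, and AURKA had an unadjusted p under 0.05, beside 4.48% of all genes. AURKA had gene values of 9.63, 9.24 and 9.35 with the GFP shRNA and 9.11 and 9.13 with the empty vector, a difference of 0.28 (SE 0.12, adjusted p = 0.947). The means of 29 of 34 members were higher with the GFP shRNA, beside 64.5% of all genes, with a median difference of 0.091 for the members and 0.016 for all genes. When single arrays were left out, the members' median lay between 0.049 (without GFP shRNA replicate 1) and 0.15 (without GFP shRNA replicate 2), and it was 0.045 after quantile normalization. Without GFP shRNA replicate 1 AURKA differed by 0.17. Brightness averaged 9.34 on the GFP shRNA arrays and 9.30 on the empty vector arrays, and its part in the difference was not tested. The median member's deviation from its own mean, given above by array, averaged 0.051 with the GFP shRNA and -0.033 with the empty vector. It averaged -0.017 with shRNA B and -0.021 with shRNA A, so that by this value knockdown lay between the 2 control constructs.

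Other genes of the same programme were read from lists that name no member. Of 80 measured other mitotic genes, 0 passed between knockdown and control and 58 (72.5%) were lower on average with knockdown (median -0.029). The same shares over all genes were 0.228% and 67.3%. ZWINT, a kinetochore protein, was at -0.25 (SE 0.055, adjusted p = 0.0609), and PSRC1, a microtubule-binding protein, at -0.18 (SE 0.048, adjusted p = 0.107). Of the 15 measured genes of the anaphase-promoting complex and its partners, 0 passed and 9 (60.0%) had lower means, a share below the 67.3% of all genes, with a median of -0.036. Its subunit ANAPC16 was at -0.28 (SE 0.068, adjusted p = 0.0805), and FZR1, the activator CDH1 that takes over from CDC20, at -0.20 (SE 0.049, adjusted p = 0.0825).

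Of the 15 regulators of G2/M transcription, RBBP4 fell and 14 did not pass. RBBP4, a histone-binding subunit of the MuvB core and of several chromatin complexes, averaged 9.76 ± 0.0441 in the knockdown arrays (SD, n = 6) and 10.05 ± 0.0481 in the controls (SD, n = 5), a difference of -0.29 (SE 0.055, adjusted p = 0.0487). This call was narrow: it was lost when any single array other than empty vector replicate 2 was left out, its adjusted p ran from 0.00240 to 0.385 over the alternatives, and the difference was -0.073 with the mean of the probe sets. E2F4, a repressor of the DREAM complex, was at -0.26 (SE 0.068, adjusted p = 0.0983). MYBL2, which encodes B-MYB, averaged 10.49 ± 0.0550 in the knockdown arrays (SD, n = 6) and 10.71 ± 0.156 in the controls (SD, n = 5), a difference of -0.22 that did not pass (adjusted p = 0.184). The other MuvB subunits differed among themselves: LIN37 was at -0.16 (adjusted p = 0.166), LIN9 at -0.025, LIN52 at -0.017 and LIN54 at 0.0076. These subunits, E2F4 and MYBL2 were picked after seeing their values. The regulators had a median of -0.082, with 13 of 15 lower (86.7%, beside 67.3% of all genes), and their 1 call is 6.67% of them, beside 0.228% of all genes.

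Of 34 measured G1/S and S phase genes 0 passed, beside 0.228% of all genes, and 27 (79.4%) were lower on average with knockdown (median -0.061), beside 67.3% of all genes. The helicase subunit MCM3 was at -0.21 (SE 0.057, adjusted p = 0.115) and the chromatin assembly subunit CHAF1A at -0.17 (SE 0.051, adjusted p = 0.129). Of the 9 measured cell cycle inhibitors 0 passed and 7 (77.8%, beside 67.3% of all genes) had lower means, with a median of -0.11. Unadjusted p by limma was under 0.05 for 55.6% of the inhibitors and 35.3% of the G1/S and S phase genes, beside 15.2% of all genes. It was so for 26.7% of the regulators, 26.7% of the anaphase-promoting complex list and 18.8% of the other mitotic genes. In each of these lists, every gene with an unadjusted p under 0.05 by limma was lower in the knockdown arrays. BTG2, an antiproliferative gene, was at -0.24 (SE 0.059, adjusted p = 0.0805), and GADD45A, a stress gene of the G2 arrest, at -0.26 (SE 0.064, adjusted p = 0.0852). CDKN2A had the largest difference of the inhibitors, -0.30 (adjusted p = 0.104). CDKN1A, the inhibitor p21, was at -0.026 (adjusted p = 0.895) and CDKN1B, p27, at -0.084 (adjusted p = 0.450). CDKN2A, CDKN1A and CDKN1B were named after their values were seen. All of these medians lay below that of all genes, -0.017.

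Differences were also read by promoter motif, as a description. The median difference between knockdown and control was -0.032 for the 18 members with CHR and CCAAT in a promoter and -0.057 for the 9 matched members without both. Among measured genes that are not members, it was -0.012 for the 800 with both and -0.019 for the 10836 without both.

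Unequal change within a gene was read from the splicing index, the log2 value of a probe set minus that array's gene value. It shows that a probe set and the rest of its gene differ between groups, and not which of them changed. None of the 733 member probe sets passed in the pooled comparison, where 0.00317% of all 220978 did. Unadjusted p was under 0.05 for 127 member probe sets (17.3%), beside 11.8% of all. The groups did not overlap in 15 of 733 member probe sets, beside 3200 of all 220978 (1.45%). None passed with shRNA B, with shRNA A or between them, and 0% of all probe sets did. Unadjusted, there were 110 with shRNA B (15.01%, beside 10.3% of all), 83 with shRNA A (11.3%, beside 9.47% of all) and 51 between the shRNAs (6.96%, beside 5.52% of all). Between the GFP shRNA and the empty vector there were 41 (5.59%, beside 4.48% of all). By gene, BIRC5 had 8 of 16 such probe sets and CDC20 7 of 20 in the pooled comparison, while CCNA2, CDK1 and PLK1 had 0. Probe sets of 1 gene share its gene value and are not independent.

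The 6 genes with the lowest p are given with 1 probe set each, and positions count the gene's used probe sets in order of their numbers. Probe set 2333158 of CDC20, the 15th of 20, had a splicing index of 1.05, 1.22 and 1.26 with shRNA B and 1.25, 1.06 and 1.26 with shRNA A, against 1.03, 0.70 and 0.71 with the GFP shRNA and 0.93 and 0.73 with the empty vector. All knockdown arrays lay above all controls, GFP shRNA replicate 1 coming within 0.03, with a difference of 0.37 (SE 0.073, adjusted p = 0.115). The probe set's own value averaged 11.10 ± 0.174 in the knockdown arrays (SD, n = 6) and 10.92 ± 0.153 in the controls (SD, n = 5), while the gene value of CDC20 was lower in the knockdown arrays. Its neighbours in number differed by -0.0020 and 0.045.

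Probe set 2652683 of ECT2, the 5th of 34, had a splicing index of 0.41, 0.64 and 0.70 with shRNA B and 0.31, 0.64 and 0.54 with shRNA A, against 0.19, 0.26 and 0.26 with the GFP shRNA and 0.12 and 0.19 with the empty vector. The knockdown arrays lay above all controls and were more spread than them, with a difference of 0.33 (SE 0.069, adjusted p = 0.117). Its own value averaged 9.09 ± 0.161 in the knockdown arrays (SD, n = 6) and 8.75 ± 0.0743 in the controls (SD, n = 5), in a gene whose value differed by 0.0018, and its neighbours differed by 0.0077 and 0.022.

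Probe set 3565695 of DLGAP5, the 19th of 24, had 0.66, 0.57 and 0.68 with shRNA B and 0.59, 0.61 and 0.66 with shRNA A, against 0.93, 0.85 and 0.87 with the GFP shRNA and 0.78 and 1.08 with the empty vector. All knockdown arrays lay below all controls, with a difference of -0.27 (SE 0.052, adjusted p = 0.101, the lowest of the member probe sets). Probe set 3589728 of BUB1B, the 20th of 29, had 0.94, 0.98 and 0.87 with shRNA B and 0.79, 0.91 and 0.91 with shRNA A, against 1.05, 1.16 and 1.19 with the GFP shRNA and 1.17 and 1.43 with the empty vector. The groups did not overlap here either, with a difference of -0.30 (SE 0.063, adjusted p = 0.122).

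In KIF11 and CENPF the same was found. Probe set 3258192 of KIF11, the 12th of 26, had 1.03, 1.01 and 1.06 with shRNA B and 0.99, 1.01 and 1.01 with shRNA A, against 1.25, 1.21 and 1.11 with the GFP shRNA and 1.19 and 1.25 with the empty vector, a difference of -0.18 (SE 0.037, adjusted p = 0.119). Probe set 2379907 of CENPF, the 25th of 34, had 0.49, 0.46 and 0.37 with shRNA B and 0.61, 0.58 and 0.45 with shRNA A, against 0.74, 0.74 and 0.75 with the GFP shRNA and 0.63 and 0.71 with the empty vector, a difference of -0.22 (SE 0.047, adjusted p = 0.121). In both the knockdown arrays lay below all controls, by a narrow gap in CENPF between shRNA A replicate 1 and empty vector replicate 1. The CENPF index was highest among the knockdown arrays on shRNA A replicates 1 and 2, which lack the array-name suffix. With the suffix as a block, which leaves those 2 arrays against the controls, the difference of the CENPF index was -0.12 (adjusted p = 0.639 by limma). The next probe set of CENPF, 2379908, differed by -0.23 as well, whereas both neighbours of the KIF11 probe set differed by positive values, 0.22 and 0.046. The 6 probe sets were chosen by this comparison, so their separation is a description.

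**Figure D5:**
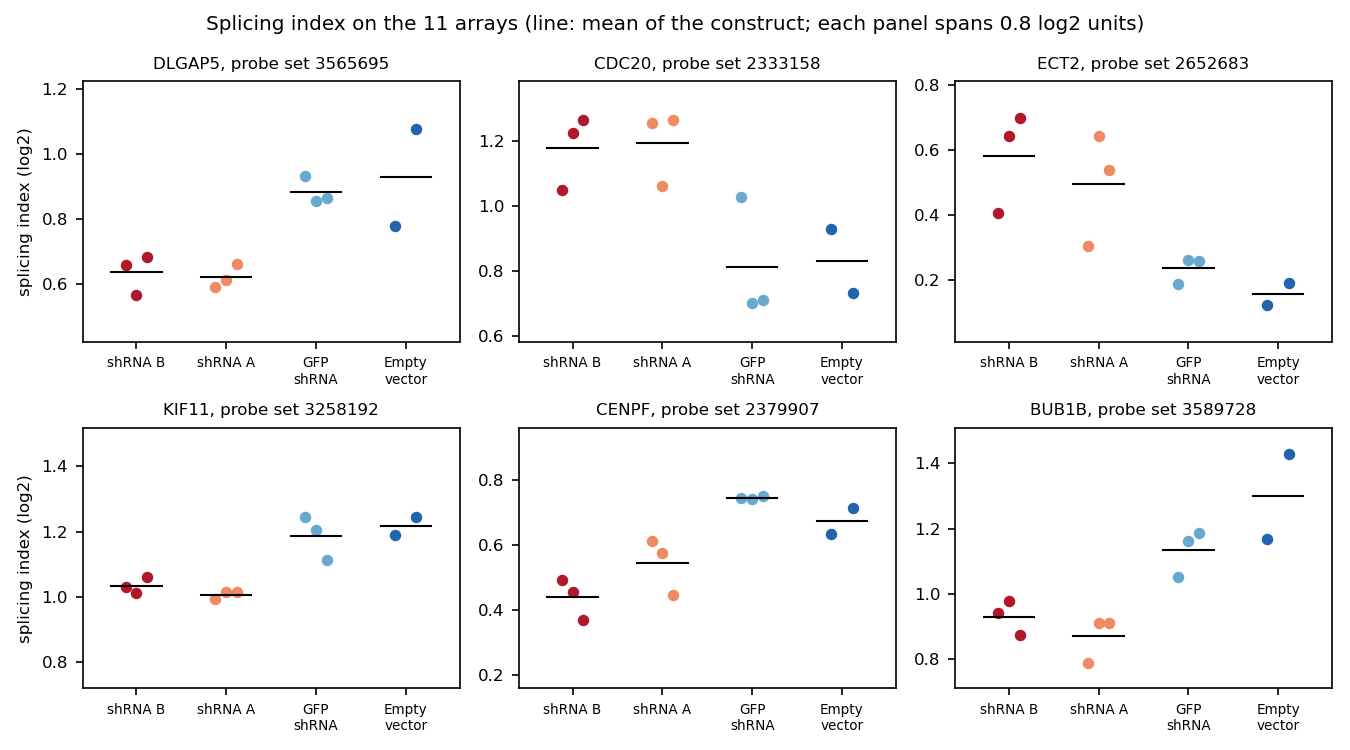
Splicing index (log2) of 6 probe sets on each of the 11 arrays by construct, with a line at each construct's mean; every panel spans 0.8 log2 units. Knockdown lies above control in CDC20 and ECT2 and below it in DLGAP5, KIF11, CENPF and BUB1B, and no probe set passed the test over all probe sets.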

How the data were processed

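RNA of the 11 samples was measured on Affymetrix Human Exon 1.0 ST arrays. The deposited table holds the authors' log2 values of 1399022 probe sets; no source used here gives the build, the software or how they were normalized (not given in the sources used here). Array medians lay between 7.902 and 7.905, correlations between arrays between 0.941 and 0.962, and 13190 to 15431 probe sets per array had no estimate. The platform table gave 1 symbol to 355799 probe sets, several to 15195 (not used) and did not list 1028028; 3021 of 19536 symbols were updated through RefSeq synonyms. Used were probe sets with 1 symbol that had no missing value and averaged at least the table's median (7.91), with at least 4 per gene. All tests of genes and of the splicing index used limma 3.58.1 (lmFit, eBayes with a trend) in R 4.3.3 on log2 values over all 11 arrays, with Benjamini-Hochberg adjustment over all genes or probe sets. The splicing index of 135 probe sets that always equal their gene's median has no variance. Single values had exact two-sided permutation tests. The fit was tested on simulated data. Alternatives were quantile normalization, a background-subtracted scale, other filters and summaries, no trend, the array-name suffix or the replicate number as a block, and each array left out. The members, lists and tests were chosen with earlier results of these data known. Values per array are given for the 8 members with the largest pooled difference, the 4 with the largest difference between the shRNAs, and CCNB1, CDK1, MAD2L1 and FOXM1; per list, the members that passed or otherwise the 2 with the lowest p; and the 6 genes with the lowest splicing index p. Deviations of same-numbered arrays correlated at -0.147 to 0.268 (15 pairs, median 0.041), and those of other pairs at -0.268 to 0.217 (30 pairs, median -0.021). The pairs share arrays, and those of the 2 empty vector arrays mirror each other, so this does not settle whether the numbers are pairs. The main fits did not take them as pairs. The labels call the samples biological replicates; the number of arrays limits the precision.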

Additional observations from a re-analysis of the deposited data

Results flagged for a closer look

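Of 86 groups of member or HTATSF1 values and array values examined, 8 held an array that stood apart from the rest of its group by Dixon's criterion, which chance meets in about 1 of 20 groups. In the knockdown arrays this was BUB3 on shRNA B replicate 2, at 10.01 with the nearest array at 9.844. Among the controls, GFP shRNA replicate 1, the brightest array, stood above the rest in 4 genes: PRC1 at 10.15 (nearest 9.745), TOP2A at 9.846 (nearest 9.537), KIF23 at 9.465 (nearest 9.268) and CCNB2 at 9.354 (nearest 9.058). NEK2 was highest on GFP shRNA replicate 3, at 8.402 (nearest 8.247). Empty vector replicate 2 stood below the other controls in CENPF, at 8.676 (nearest 8.948), and in ECT2, at 8.466 (nearest 8.559).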

How the results depend on the processing

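No member passed in any of the 5 comparisons of constructs under the alternatives run, with these exceptions: between knockdown and control the count was 1 with the higher floor for probe sets (AURKB, adjusted p = 0.0301) and 1 without empty vector replicate 2 (KIF2C, adjusted p = 0.0336), a range of 0 to 1 when single arrays were left out. In the pooled comparison AURKB stayed lower under all of them, between -0.41 and -0.21, with adjusted p between 0.0301 and 0.573, and for shRNA B against control it lay between -0.48 and -0.17, with adjusted p between 0.0613 and 0.935. The members' median for shRNA B against shRNA A was 0.043 without shRNA B replicate 1 (-0.038 to 0.043 over arrays left out) and 0.043 without the brightest and the dimmest array, and that for shRNA B against control was 0.033 without these 2 arrays, alternatives chosen after seeing the data. For shRNA A against control CDKN3 was at 0.014 with the higher floor, and for shRNA B against control MAD2L1 was at -0.26 with the suffix as a block; the causes were not tested. Brightness differed by -0.080 to -0.052 when single arrays were left out (exact permutation p between 0.0191 and 0.0667). With the replicate block, 0 members passed and AURKB was at -0.35 (adjusted p = 0.111); of the 15 same-numbered pairs 5 correlated above 0.1, and of 30 other pairs 6 did. All genes called between knockdown and control numbered 0 to 251 over the alternatives (33 as reported), 10 with the replicate block, 0 with the suffix as a block and 6 after quantile normalization. They numbered 0 to 90 for shRNA B (9), 0 to 30 for shRNA A (1), 0 to 3 between the shRNAs (0) and 0 to 2 between the control constructs (1). Probe sets called by splicing index in the pooled comparison numbered 0 to 95 (7), with 95 without GFP shRNA replicate 1, and 0 member probe sets were among them under any alternative run. Signal near the dim level limits these values: CDKN3 and CDC25C were at -0.38 and -0.31 on the background-subtracted scale.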
